A study of Homo sapiens with 6 samples.

Results

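Breast lineage markers were read in HCC1806/HM3 cells, a human triple-negative breast cancer line, after knockdown of mesothelin (MSLN). The set names 40 genes (keratins, basal and luminal lineage factors, and surface or secreted markers), read from the expression table by gene symbol. Of these, 38 have a row among the 17860 genes of the expression table, and the expression of TFF3 and TFAP2B was not analysed here. For description the genes were placed on a basal side (15 genes), a luminal side (13 genes) or neither side (12 genes: progenitor or basal-like genes, AP-2 factors and other keratins). HCC1806/HM3 is the third-passage liver-metastatic derivative of HCC1806, obtained by repeated fat pad injection in nude mice, and the labels describe it as a squamous cell carcinoma of the breast. The cells carried a lentiviral shRNA integrated stably under G418 selection, which was a control in the 3 shNC samples and targeted MSLN in the 3 shMSLN samples. The labels give a single shMSLN line without re-expression of MSLN, the sources used here do not say which MSLN shRNA it carried, and nothing says that the 3 samples of a group were separate cultures, so p-values measure the spread between these samples, which may be technical.

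The mammary epithelium has an outer basal layer and an inner luminal layer. Basal cells make keratins 5 and 14 under the control of the p63 transcription factor, whereas luminal cells make the simple keratins 7, 8, 18 and 19, with GATA3, FOXA1 and the estrogen receptor as their lineage factors. Luminal progenitors express KIT and ELF5, and triple-negative tumors often mix features of these cells with basal keratins. Keratins assemble as pairs of a type I and a type II protein, as in KRT5 with KRT14 or KRT8 with KRT18.

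MSLN, the knocked-down gene, was measured at 231, 226 and 227 CPM (counts relative to TMM-scaled library size) in shNC samples and at 37.1, 36.2 and 35.4 CPM in shMSLN samples. It fell by 2.65 on the log2 scale (standard error 0.042, adjusted p = 3.97e-15, edgeR's quasi-likelihood test with Benjamini-Hochberg adjustment, used throughout). Estimated counts summed to 17507837 in the shallowest and 18512135 in the deepest sample. In the shMSLN columns 695 to 1103 genes held a missing mark, among them the members KRT6B, PGR and SOX10. The shNC columns held no such mark but 1094 to 1150 genes at 0, against 0, 405 and 393 in shMSLN replicates 1, 2 and 3. Whether the marks stand for counts of 0 was not tested. Whole numbers made up 47.7% of the estimated counts above 100 in shMSLN replicates 2 and 3 but 3.36% to 7.02% in the other samples. Among the 22 members that passed the test, the change read from shMSLN replicate 1 alone, divided by that from replicates 2 and 3, ran from 0.429 for KRT18 and 0.537 for KRT16 to 2.04 for CRYAB, with a median of 0.964.

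Values for the 9 members with an adjusted p below 0.05 and a log2 fold change of at least 0.5 in size are given below. Of these, KRT6A, KRT16, KRT23 and CRYAB have no RefSeq promoter entry. The other 5 have an entry with a single listed start site. Sequence from the 250 bases before it is shown for these 5, so that those that rose can be set beside each other and beside GABRP, which fell. These are KIT (chr4:54657707-54657917, forward strand), VGLL1 (chrX:136531965-136532151, forward strand), ID4 (chr6:19837120-19837369, forward strand), ELF5 (chr11:34511829-34511974, reverse strand) and GABRP (chr5:170783475-170783690, forward strand), from RefSeq on GRCh38.p14. Each stretch is the part of the 250 bases before the start that no annotated exon covers, written 5′ to 3′ on the gene's strand, with motif matches in capitals.
KIT: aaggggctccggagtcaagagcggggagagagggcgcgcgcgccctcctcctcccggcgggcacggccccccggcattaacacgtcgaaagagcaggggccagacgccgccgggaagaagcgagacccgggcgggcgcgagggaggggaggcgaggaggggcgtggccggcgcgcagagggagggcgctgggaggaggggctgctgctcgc
VGLL1: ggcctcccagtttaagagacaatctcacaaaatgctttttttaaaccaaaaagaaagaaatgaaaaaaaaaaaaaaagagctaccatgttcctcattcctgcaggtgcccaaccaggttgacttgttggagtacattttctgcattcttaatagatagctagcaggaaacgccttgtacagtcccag
ID4: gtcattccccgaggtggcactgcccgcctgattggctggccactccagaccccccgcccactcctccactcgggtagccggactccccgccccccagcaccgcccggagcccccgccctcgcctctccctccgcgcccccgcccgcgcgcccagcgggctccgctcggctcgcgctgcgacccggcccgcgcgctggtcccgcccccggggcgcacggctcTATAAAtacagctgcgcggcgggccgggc
ELF5: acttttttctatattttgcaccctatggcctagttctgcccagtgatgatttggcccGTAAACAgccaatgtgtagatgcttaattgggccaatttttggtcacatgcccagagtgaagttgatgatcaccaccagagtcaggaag
GABRP: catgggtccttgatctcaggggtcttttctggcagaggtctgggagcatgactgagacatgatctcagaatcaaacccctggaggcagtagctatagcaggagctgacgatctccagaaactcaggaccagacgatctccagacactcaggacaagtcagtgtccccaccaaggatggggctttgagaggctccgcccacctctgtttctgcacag

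Of the members, 21 had an entry in this promoter table. The whole windows of 250 bases were searched on both strands for an AP-2 motif (GCCNNNGGC), a GATA motif (AGATAA), a forkhead motif (TGTTTAC) and a TATA box (TATAAA), none of which is contained in another. Among 34788 distinct promoter windows of the same length, 19.8%, 9.21%, 2.98% and 10.8% held a match. In ID4 the capitals mark a TATA box beginning 29 bases before the start, and in ELF5 they mark the reverse complement of the forkhead motif, beginning 193 bases before the start. KIT, VGLL1 and GABRP held none of the 4 motifs in these windows. Across the 21 members an AP-2 match was found in 4 (CD24, FOXC1, GATA3 and PGR). A GATA match was found in 2 (AGR2 and MIA), a forkhead match in 1 and TATAAA on either strand in 4. It lay on the gene's strand in ID4 and TFAP2A, beginning 29 and 30 bases before the start. In GATA3 and TFAP2B only its reverse complement was found, beginning 205 and 202 bases before a start. The 21 members hold 40 windows, and a match in any window counted. These counts per gene are therefore not on the scale of the shares per window above. The upstream base composition of the 5 genes differed widely, from 43.6% G and C in VGLL1 to 78.8% in ID4.

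**Figure D1:**
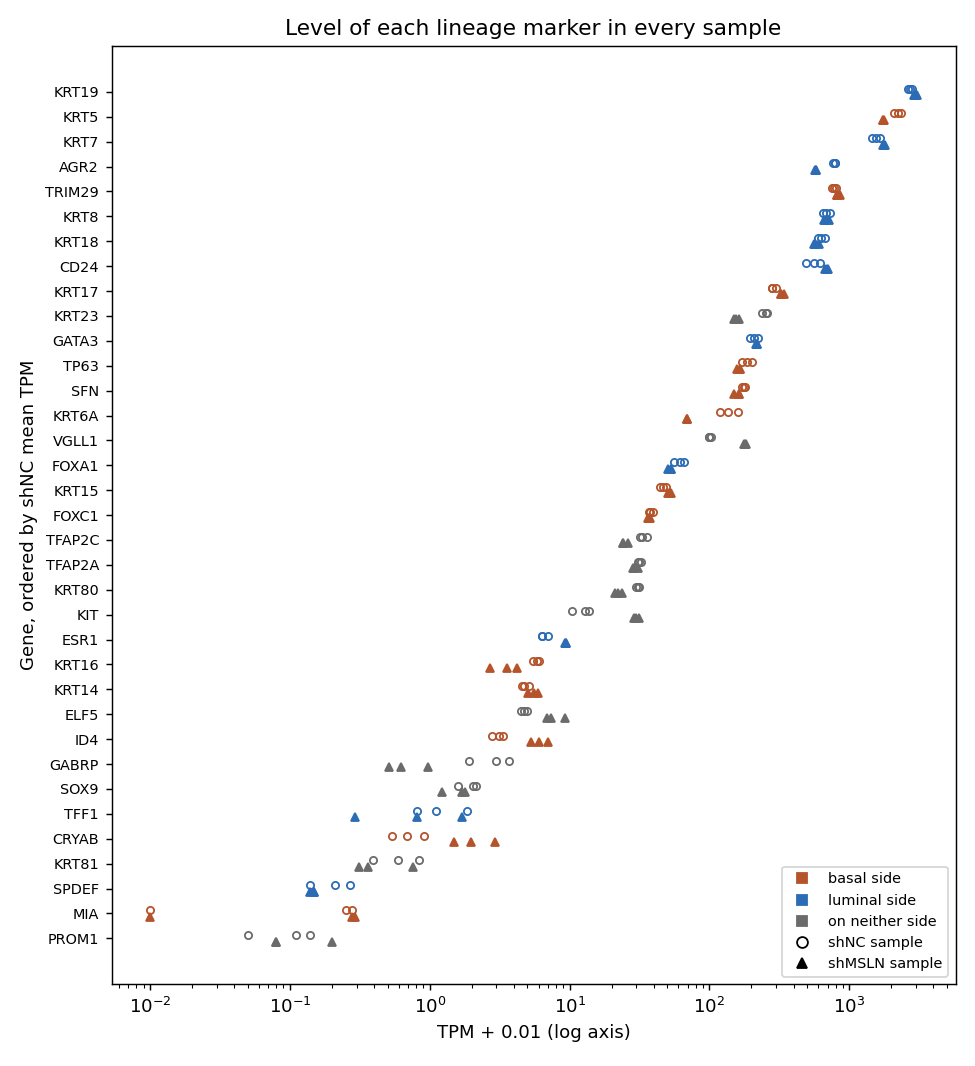
Level of each of the 35 lineage markers with a value in every sample, in TPM (abundance per transcript length) plus 0.01 on a log axis, with genes ordered by their shNC mean. Open circles are shNC samples and filled triangles are shMSLN samples, in orange for the basal side, blue for the luminal side and gray for neither side. KRT19, KRT5 and KRT7 lead the order, KRT14 lies far below KRT5, and SPDEF, MIA and PROM1 lie at the lower end.

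The cells held abundant transcripts of both lineages, with gaps on both sides. On the length-scaled TPM scale, the highest shNC levels were those of KRT19 (2718 ± 104 TPM, SD, n = 3), KRT5 (2228 ± 121 TPM) and KRT7 (1550 ± 94.2 TPM), so a basal keratin stood between simple keratins. AGR2, a luminal secretory-pathway disulfide isomerase, followed at 782 ± 15.2 TPM, and TRIM29, a basal and squamous marker, at 778 ± 24.4 TPM. These neighbors did not differ beyond their spread. KRT14, the usual type I partner of KRT5, reached only 4.78 ± 0.263 TPM, whereas KRT17, another basal type I keratin, reached 288 ± 10.6 TPM.

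Among lineage factors, GATA3 (209 ± 14.6 TPM) and TP63 (186 ± 14.9 TPM) were at a similar level, with overlapping samples. FOXA1, a forkhead factor that opens luminal enhancers, stood at 61.2 ± 4.93 TPM and FOXC1, a forkhead factor of basal-like tumors, at 38.1 ± 1.38 TPM. ESR1, the estrogen receptor, stood at 6.56 ± 0.371 TPM. PGR, the progesterone receptor, and SOX10, a neural crest and myoepithelial factor, had at most 1.01 estimated reads in any sample with a value. SPDEF, a luminal secretory factor, had 2 to 4 reads, TFF1, an estrogen-induced secreted peptide, 1 to 7.01 reads, and the basal-like marker MIA at most 1 read. Of the markers that bear on the label of squamous, triple-negative cells, KRT5, TP63 and TRIM29 were high and ESR1 and PGR low. Against these, KRT14 was low, SOX10 and MIA were near 0, and luminal GATA3 and AGR2 were high. Of 16 squamous and desmosomal genes outside the set, 13 had a mean of at least 1 CPM. Among the others, SPRR1A and SPRR1B stood at 0.0857 and 0.245 CPM in shNC samples. ERBB2, the receptor gene whose amplification defines HER2-positive tumors, was at 154 ± 3.93 CPM in shNC and 146 ± 8.07 CPM in shMSLN samples, and mRNA counts do not give receptor status.

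Between shMSLN and shNC cells, 22 of the 30 members that could be tested passed an adjusted p of 0.05, 10 higher and 12 lower in shMSLN cells (73.3%). Without shMSLN replicate 1 the number higher was 6 and the number lower 12. CRYAB is counted among the higher members and the larger changes below, but passed the read filter only through its shMSLN samples. Over all 14552 genes tested the share was 34.6%, with 16.6% higher and 18% lower. Among members with a mean of at least 10 CPM the share was 17 of 23 (73.9%), beside 39.3% of all genes at that level. In bulk RNA, fewer cells expressing a gene and less RNA per cell cannot be told apart. A change of at least 0.5 in size on the log2 scale was reached by 9 members, 4 of them among the 23 of at least 10 CPM, beside 7.88% of all tested genes (4.82% higher, 3.06% lower) and 4.66% of all genes of at least 10 CPM. Groups did not overlap for 25 of the 30, beside 46.2% of all genes (22.7% higher, 23.5% lower). The median log2 fold change of the tested members was -0.061, against 0.0019 over all tested genes, so the calls did not lie on 1 side. KRT81, MIA, PROM1, SPDEF and TFF1 had too few reads to be tested. KRT6B and PGR lacked a value in shMSLN replicate 1, and SOX10 in every shMSLN sample.

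The basal side did not move as a block, nor did the luminal side. Of 12 tested basal genes 4 were higher and 5 lower, with a median log2 fold change of -0.0072. Without shMSLN replicate 1 the higher calls of KRT15, KRT17 and CRYAB were lost and that of ID4 stayed. The 5 lower calls (KRT5, KRT6A, KRT16, TP63 and SFN) stayed in that setting. Of these, SFN lost its call without shMSLN replicate 3. Of 9 tested luminal genes 3 were higher and 3 lower, with a median of 0.027. Of 9 tested genes on neither side 3 were higher and 4 lower, with a median of -0.32. A score taken per sample as the mean log2(CPM + 1) of 13 basal genes less that of 11 luminal genes was -1.48 ± 0.019 (SD, n = 3) in shNC and -1.51 ± 0.024 in shMSLN samples. Its change of -0.037 kept its sign with 1 sample left out but not across settings. It was -0.106 among genes of at least 1 CPM and 0.064 with a pseudocount of 0.1.

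**Figure D2:**
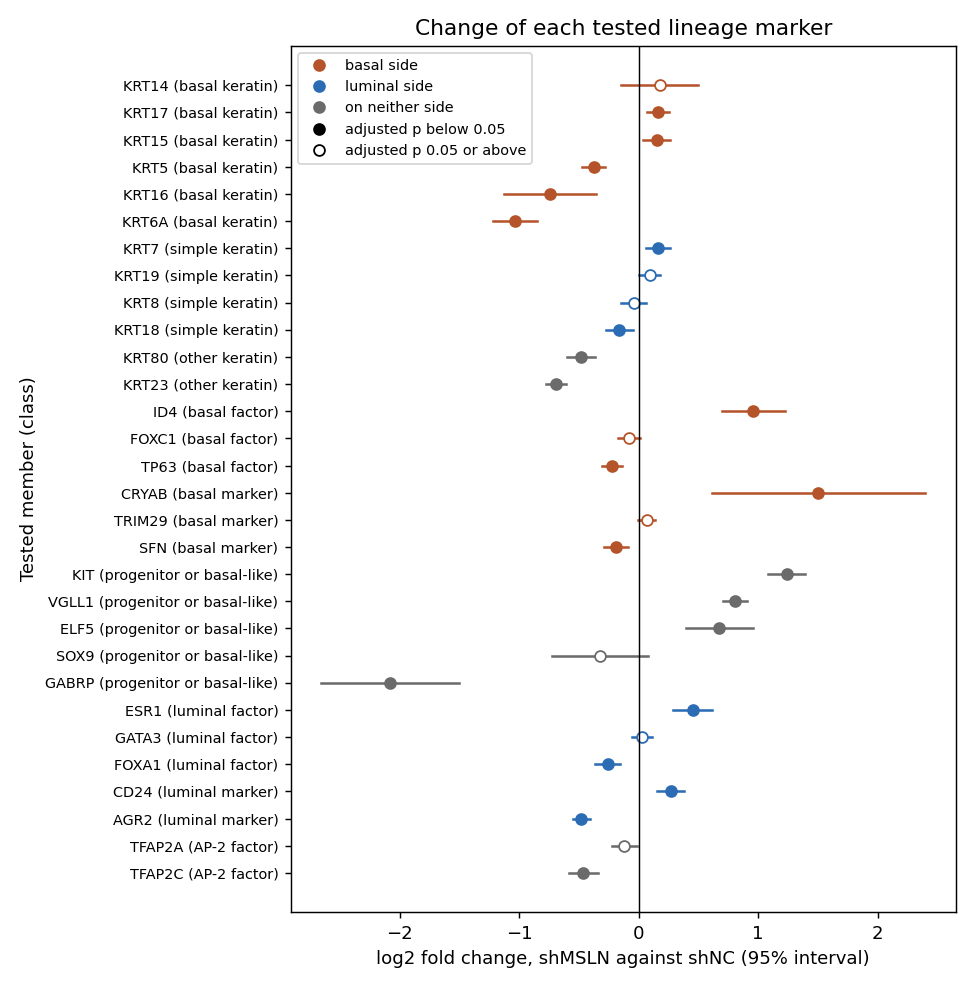
Log2 fold change of each of the 30 tested lineage markers, shMSLN against shNC, with 95% intervals from the edgeR fit and genes grouped by class. Filled points have an adjusted p below 0.05, in orange for the basal side, blue for the luminal side and gray for neither side. Points of each color lie on both sides of the zero line, from GABRP at -2.08 to CRYAB at 1.50.

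Basal keratins split. KRT5, the main type II keratin of basal cells, was at 2426, 2088 and 2295 CPM in shNC samples and at 1785, 1738 and 1723 CPM in shMSLN samples. All shMSLN samples lay below all shNC samples, and KRT5 fell by 0.38 on the log2 scale (standard error 0.044, edgeR adjusted p = 1.40e-05). KRT6A, a type II keratin of activated and wound-edge keratinocytes, was at 170, 121 and 144 CPM in shNC samples and at 71.4, 70.9 and 70.3 CPM in shMSLN samples. It fell by 1.04 (standard error 0.087, edgeR adjusted p = 4.12e-07), a 2.05-fold difference without overlap. KRT16, a type I partner of KRT6A, was at 4.58, 4.0 and 4.39 CPM in shNC samples against 3.09, 2.61 and 1.95 CPM. It fell by 0.74 (standard error 0.18, edgeR adjusted p = 0.0052), again without overlap, and this call was lost when KRT16 and KRT14 were summed (below).

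The other type I basal keratins did not follow KRT5. KRT14 was at 3.51, 3.66 and 3.41 CPM in shNC samples and at 3.67, 4.25 and 3.99 CPM in shMSLN samples. Although its groups did not overlap, the log2 difference of 0.17 (95% interval -0.14 to 0.49) did not pass the test (edgeR adjusted p = 0.393). KRT17 rose from 197 ± 10.3 to 220 ± 7.47 CPM (SD, n = 3 each; log2 fold change 0.16, edgeR adjusted p = 0.0095) and KRT15 from 41.6 ± 2.37 to 46.2 ± 0.578 CPM (0.15, edgeR adjusted p = 0.041). Both rises were small, and their calls were lost when shNC replicate 3 or shMSLN replicate 1 was left out (KRT17, adjusted p = 0.051 and 0.055; KRT15, 0.124 and 0.076, and also without shNC replicate 2, shMSLN replicate 2 or shMSLN replicate 3 and in DESeq2, adjusted p = 0.114).

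Several keratin genes share sequence with near copies, which can move estimated counts between them. Of the 100-base windows of annotated KRT6A transcripts, 18.2% also occur in KRT6B, KRT6C or KRT5 transcripts, against 5.95% for KRT14, 5.65% for KRT16, 1.09% for KRT5 and 0.227% for KRT17. With KRT6A, KRT6B and KRT6C summed, the fall was 1.03 (edgeR adjusted p = 4.15e-07), close to that of KRT6A alone. KRT14 and KRT16 share windows with each other and with KRT16 pseudogenes. Their sum, a setting chosen after seeing the data, differed by -0.26 (edgeR adjusted p = 0.082), so the separate values of KRT16 and KRT14 are uncertain. KRT81 shares 29.7% of its windows, and KRT81, KRT83 and KRT86 summed gave a log2 difference of 0.11 (edgeR adjusted p = 0.759).

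Simple keratins moved little. In shNC samples KRT7, KRT8, KRT18 and KRT19, like KRT5 and KRT6A, were highest in replicate 1 and lowest in replicate 2. Their spread was thus shared between genes, though KRT23 and KRT14 had other orders. KRT8 was at 603, 517 and 553 CPM in shNC samples and at 569, 534 and 521 CPM in shMSLN samples. The groups overlapped, and the log2 difference was -0.04 (95% interval -0.15 to 0.06, edgeR adjusted p = 0.551). KRT18, its type I partner, was at 432, 369 and 403 CPM against 378, 351 and 347 CPM. It fell by 0.16 (standard error 0.051, edgeR adjusted p = 0.025), with shMSLN replicate 1 inside the shNC range. That call was lost under upper-quartile scaling (adjusted p = 0.060) and without shNC replicate 1 (0.053), shNC replicate 3 (0.073), shMSLN replicate 2 (0.110) or shMSLN replicate 3 (0.117), and the annotated KRT8 and KRT18 genes overlap on opposite strands of chromosome 12. KRT7 rose from 1126 ± 91.1 to 1262 ± 28.8 CPM (0.16, edgeR adjusted p = 0.014), a call lost without shMSLN replicate 1 (adjusted p = 0.066). KRT19 was at 1696 ± 98.2 and 1806 ± 67.4 CPM (0.09, 95% interval 0.0019 to 0.18, edgeR adjusted p = 0.106), and it passed under upper-quartile scaling (adjusted p = 0.036), with a replicate block (0.024) and without shNC replicate 1 (0.0063).

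Both tested keratins outside these classes fell. KRT23, a type I keratin of simple and glandular epithelia, was at 200, 206 and 211 CPM in shNC samples and at 130, 125 and 128 CPM in shMSLN samples. It fell by 0.69 (standard error 0.039, edgeR adjusted p = 8.57e-09), with no overlap between the groups. KRT80, a type II keratin, fell from 54.6 ± 2.64 to 39.0 ± 1.78 CPM (log2 fold change -0.48, edgeR adjusted p = 9.59e-06).

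The summed keratin mRNA stayed at a similar level while its make-up differed. The 48 listed keratin genes, 37 of them with a value in every sample and missing values counted as 0, took 1.10% to 1.19% of TPM in shNC and 1.16% to 1.20% in shMSLN samples. KRT5 made up 19.7%, 19.1% and 19.6% of keratin TPM in shNC samples and 14.8%, 14.9% and 15.0% in shMSLN samples. The basal keratins together, mostly KRT5, made up 24.1%, 23.3% and 23.8% in shNC and 18.8%, 18.8% and 18.9% in shMSLN samples. These basal shares did not overlap between groups and were not tested. The 4 simple keratins made up 48.5% to 49.4% in shNC and 50.5% to 51.6% in shMSLN samples. On the TPM scale KRT5 was above KRT7 in every shNC sample, whereas KRT7 (1778 ± 27.6 TPM) was above KRT5 (1759 ± 20.0 TPM) in every shMSLN sample, there by less than the spread between samples.

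The balance of the partner types differed as well. Type II keratin TPM per type I keratin TPM was 0.912, 0.855 and 0.884 in shNC samples and 0.715, 0.712 and 0.713 in shMSLN samples, with no overlap. This was described and not tested. It also holds KRT13 and KRT4, a mucosal keratin pair outside the marker set and chosen after their values were seen. KRT13, of type I, rose from 1619 ± 39.8 to 2081 ± 10.5 CPM (log2 fold change 0.36, edgeR adjusted p = 5.06e-07), and KRT4, of type II, fell from 698 ± 40.7 to 554 ± 18.8 CPM (-0.33, edgeR adjusted p = 3.18e-05). Of 34 keratins beyond the marker set 9 were tested, 1 higher and 2 lower (33.3%, beside 34.6% of all tested genes). The third was KRT1, a keratin of differentiated epidermis, likewise chosen after its values were seen, which fell from 1.07 ± 0.285 to 0.461 ± 0.113 CPM (log2 fold change -1.20, edgeR adjusted p = 0.015). KRT1 was near the detection limit and passed the read filter only through its shNC samples, so its call depends on the group in which it was high.

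**Figure D3:**
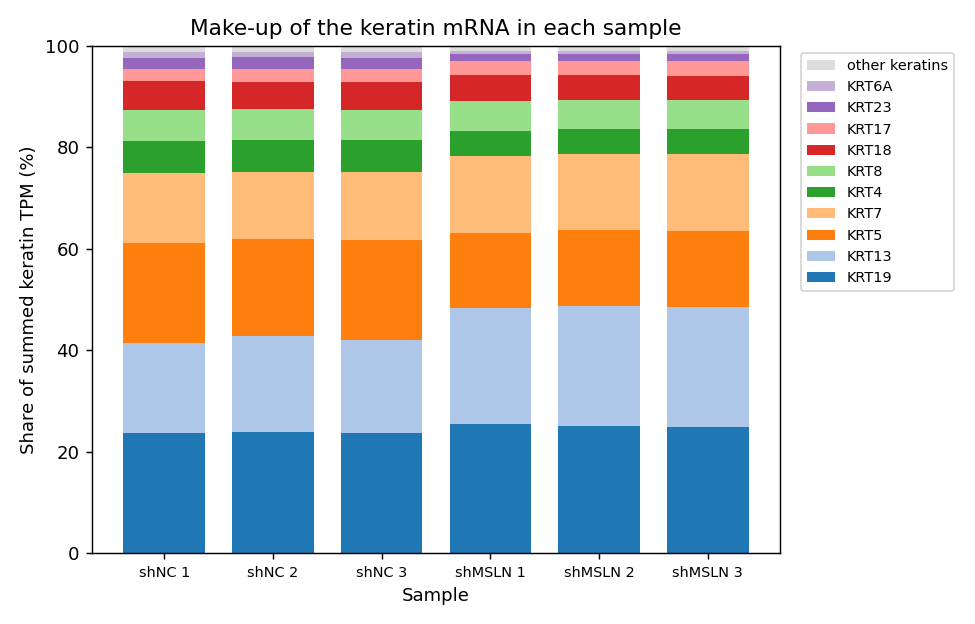
Share of summed keratin TPM (in percent) held by the 10 most abundant keratins and by all other keratins together in each of the 3 shNC and 3 shMSLN samples. The KRT5 band is narrower in shMSLN samples (14.8% to 15.0%) than in shNC samples (19.1% to 19.7%), and the KRT13 band is wider (22.8% to 23.7% against 17.7% to 19.0%).

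Basal factors and markers also went both ways. TP63, the master factor of stratified and basal epithelia, was at 374, 415 and 398 CPM in shNC samples and at 331, 343 and 343 CPM in shMSLN samples. It fell by 0.22 (standard error 0.041, edgeR adjusted p = 7.03e-04), a small difference without overlap. ID4, a helix-loop-helix inhibitor that marks basal and stem-like mammary cells and whose upstream sequence holds the TATA box above, was at 5.06, 5.82 and 5.57 CPM in shNC samples and at 9.30, 10.5 and 12.2 CPM in shMSLN samples. It rose by 0.96 (standard error 0.12, edgeR adjusted p = 3.14e-05), a 1.95-fold difference. FOXC1 was at 69.7 ± 0.993 and 65.9 ± 1.26 CPM (-0.08, 95% interval -0.17 to 0.013, edgeR adjusted p = 0.173).

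SFN, the 14-3-3 sigma protein of stratified epithelia, fell from 103 ± 3.54 to 90.8 ± 4.54 CPM (-0.19, edgeR adjusted p = 0.0062), a call lost without shMSLN replicate 3 (adjusted p = 0.051). TRIM29 was at 1049 ± 10.6 and 1098 ± 35.9 CPM (0.07, 95% interval -0.0060 to 0.14, edgeR adjusted p = 0.146), and it passed only under upper-quartile scaling (adjusted p = 0.035) among the settings tried. CRYAB, a small heat-shock protein found in basal-like tumors, was near the detection limit, at 0.383, 0.277 and 0.223 CPM (7, 5 and 4 reads) in shNC samples and at 1.18, 0.561 and 0.791 CPM (22, 10 and 14 reads) in shMSLN samples. It rose by 1.50 (standard error 0.42, edgeR adjusted p = 0.012), and the call was lost without shNC replicate 3 (adjusted p = 0.058) or shMSLN replicate 1 (0.065). CRYAB passed the read filter only through its shMSLN samples, so its call depends on the group in which it was high. With at least 10 counts required in every sample it was not tested.

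**Figure D4:**
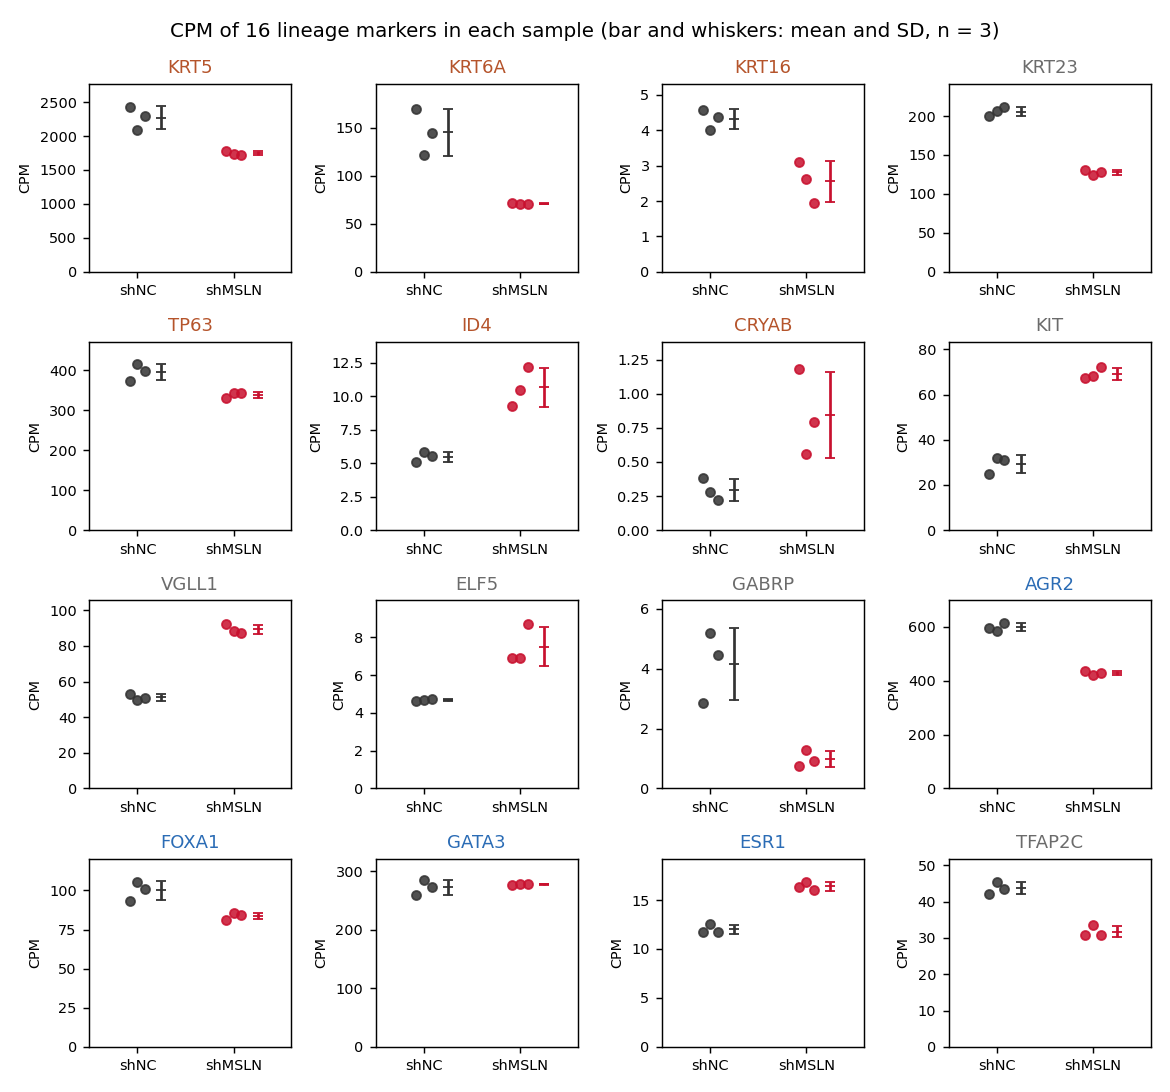
CPM of 16 lineage markers in each sample, with shNC samples in black and shMSLN samples in red, each panel starting at 0; horizontal bars and whiskers give the mean and SD (n = 3), and gene names are orange for the basal side, blue for the luminal side and gray for neither side. The shMSLN samples of KIT, VGLL1, ELF5, ID4, CRYAB and ESR1 lie above all shNC samples, those of GATA3 lie within the shNC range, and those of the other 9 genes lie below.

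Of the 5 tested progenitor and basal-like genes, 3 were higher and 1 lower, each by at least 0.5 on the log2 scale. KIT, the receptor tyrosine kinase of luminal progenitors, was at 24.9, 31.9 and 31.0 CPM in shNC samples and at 67.1, 68.1 and 72.0 CPM in shMSLN samples. It rose by 1.24 (standard error 0.073, edgeR adjusted p = 1.30e-08), a 2.36-fold difference far beyond the spread in either group. ELF5, an ETS factor of alveolar and luminal progenitor cells, was at 4.64, 4.71 and 4.74 CPM in shNC samples and at 6.92, 6.91 and 8.69 CPM in shMSLN samples. It rose by 0.67 (standard error 0.13, edgeR adjusted p = 0.0012), without overlap. VGLL1, a TEAD cofactor expressed in basal-like tumors, was at 53.1, 49.5 and 50.9 CPM in shNC samples and at 92.1, 88.5 and 87.3 CPM in shMSLN samples. It rose by 0.80 (standard error 0.047, edgeR adjusted p = 1.17e-08), a 1.75-fold difference.

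GABRP, a GABA-A receptor subunit expressed in basal-like tumors, went the other way, at 2.85, 5.21 and 4.45 CPM in shNC samples and 0.753, 1.29 and 0.904 CPM in shMSLN samples. It fell by 2.08 (standard error 0.27, edgeR adjusted p = 3.38e-05), a 4.23-fold difference on 14 to 94 reads a sample. SOX9, a progenitor factor, was at 3.43 ± 0.467 and 2.74 ± 0.518 CPM (-0.32, 95% interval -0.73 to 0.081, edgeR adjusted p = 0.206), with overlapping groups. PROM1, which encodes the surface protein CD133, had 1 to 6 reads a sample and was not tested.

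Luminal factors and markers were likewise split. GATA3, the main luminal lineage factor, was at 260, 286 and 273 CPM in shNC samples and at 277, 279 and 278 CPM in shMSLN samples. The shMSLN samples lay inside the shNC range, and the difference was 0.03 (95% interval -0.057 to 0.11, edgeR adjusted p = 0.639). FOXA1 was at 93.4, 106 and 101 CPM in shNC samples and at 81.2, 85.4 and 84.1 CPM in shMSLN samples. It fell by 0.26 (standard error 0.049, edgeR adjusted p = 9.24e-04), without overlap. ESR1 was at 11.7, 12.5 and 11.7 CPM in shNC samples and at 16.3, 16.9 and 16 CPM in shMSLN samples. It rose by 0.45 (standard error 0.077, edgeR adjusted p = 3.63e-04), so FOXA1 and ESR1, which act together in luminal tumors, moved in opposite directions.

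AGR2 fell from 598 ± 14.3 to 429 ± 7.24 CPM (-0.48, edgeR adjusted p = 8.13e-08), and CD24, a glycosylated surface protein high on luminal cells, rose from 548 ± 52.1 to 659 ± 12.5 CPM (0.27, edgeR adjusted p = 0.0013). Neither gene's groups overlapped. Among AP-2 factors, which act on genes of both lineages, TFAP2C fell from 43.7 ± 1.69 to 31.7 ± 1.51 CPM (-0.47, edgeR adjusted p = 1.88e-05). TFAP2A was at 48.4 ± 0.122 and 44.6 ± 1.84 CPM (-0.12, 95% interval -0.23 to -0.014, edgeR adjusted p = 0.074).

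Further lineage lists held calls in both directions. Of 9 tested myoepithelial genes (contractile and basal surface genes) 4 were higher and 1 lower, with a median log2 fold change of 0.25. Of 14 tested squamous and desmosomal genes 4 were higher and 4 lower, with a median of -0.024. The largest changes there, chosen after their values were seen, were those of the desmosomal cadherin DSG3, which rose by 0.84 (edgeR adjusted p = 1.73e-05), and of the desmosomal plaque protein PKP1, which fell by 0.83 (edgeR adjusted p = 2.06e-09). Of 14 tested luminal genes beyond the members 4 were higher and 3 lower, with a median of -0.074. The shares called in these lists were, in that order, 55.6%, 57.1% and 50%, beside 34.6% of all tested genes (16.6% higher, 18% lower).

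Markers of other cell types were low. In summed CPM, 6 fibroblast genes ranged from 35.2 to 37.5 in shNC and 36.3 to 39.1 in shMSLN samples, mostly from COL1A1, 5 leukocyte genes from 27.4 to 30.3 and 26.0 to 29, mostly from CD68, and 4 endothelial genes from 7.34 to 8.79 and 8.77 to 9.93. Of the tested genes of these lists, DCN (log2 fold change 0.70, edgeR adjusted p = 0.039) and VWF (0.41, edgeR adjusted p = 0.027) were higher and the others did not pass. PTPRC stood at 2.68 and 2.95 CPM, PECAM1 at 1.76 and 1.66 CPM and CD3E at 0.037 and 0.037 CPM in shNC and shMSLN cells. Their part in the results above was not tested.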

How the data were processed

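BGI sequenced poly(A)-selected mRNA from 3 samples of each group. The authors deposited estimated counts, FPKM and TPM per gene. The genome build is GRCh38.p13 in the submitters' processing notes, and the aligner, counter and annotation are not given in the sources used here. The deposited estimated counts carry no scaling for depth. The authors' TPM values, scaled for gene length and depth, served to compare levels between genes. They also gave the keratin shares and the ratio of keratin types in both groups, and an alternative setting of the score. No TPM difference was tested, and the deposited FPKM values were not used. The shMSLN columns hold missing marks, which left 16573 genes complete. Groups and replicate numbers came from the sample labels.

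After rounding, the comparison was run in R 4.3.3 by the quasi-likelihood test of edgeR 4.0.16, with TMM factors, filterByExpr and no covariate. Its p-values were adjusted over 14552 genes by the Benjamini-Hochberg method. An adjusted p below 0.05 counted as a call. The fit was tested on simulated data. A gene at 1 CPM rests on fewer than 20 reads a sample, so low genes are limited by counting error. With 3 against 3 samples, an exact permutation test could not go below p = 0.1 and was not used. Per-sample values are given for members with a call and a log2 fold change of at least 0.5 in size, and always for KRT5, KRT14, KRT8, KRT18, TP63, GATA3, ESR1, FOXA1 and MSLN. Genes of the added cell-type and lineage lists were to be named at a size of at least 1, which none of those tested and called reached. KRT13, KRT4, KRT1, DSG3, PKP1, SPRR1A, SPRR1B, ERBB2, DCN, VWF, COL1A1, CD68, PTPRC, PECAM1 and CD3E were named after their values were seen. Values of other lineage markers are means or ranges.

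The members, their classes, the lists and the tests were chosen with earlier results of these data known. Alternatives were DESeq2 1.42.0, limma-voom (limma 3.58.1), RLE or upper-quartile factors, looser and stricter count minimums, a robust fit, a replicate block, missing values as 0, sums over near copies (that of KRT14 and KRT16 was added after seeing the data), other settings of the score, and leaving out each sample. Shared windows and gene overlaps were read from GENCODE release 29, and the annotation behind the deposited counts may differ.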

Additional observations from a re-analysis of the deposited data

How the results depend on the processing

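Of 455 values of single members under other settings, 428 kept their direction and side of the threshold, 18 lost and 5 gained a call, and 4 changed sign. With 1 sample left out, KRT8 ran from -0.093 to 0.017 and GATA3 from -0.0087 to 0.062, both changing sign without shNC replicate 1 and neither called. KRT14 was at -0.26 in the sum with KRT16, added after seeing the data. The sum of KRT14, KRT16 and KRT17, at 0.15, had the opposite sign to KRT16, but KRT17 holds most of it, so it says nothing about KRT16. The number of members that passed was 21 to 23 under other tools, scalings and filters and 18 to 22 with 1 sample left out. The number higher was 10, and 6 to 11 with 1 sample left out (6 without shMSLN replicate 1), and the number lower was 12, and 10 to 12. The basal median of -0.0072 was 0.022 under upper-quartile scaling, -0.077 with at least 10 counts in every sample, and -0.030 to 0.0080 with 1 sample left out. The luminal median of 0.027 was -0.044 with the count minimum lowered to 1. The score change of -0.037 was 0.064 and -0.069 with pseudocounts of 0.1 and 5, and -0.0026 on the authors' TPM. It was 0.031 with progenitor or basal-like genes added to the basal side and -0.106 with members of at least 1 CPM. With 1 sample left out it ran from -0.047 to -0.023. The sign of the score thus varied with its settings, so neither the medians nor the score gave the basal or luminal side a direction. The causes of these shifts were not tested. With the replicate number as a block 23 members passed, KRT19 being the added one. Deviations of same-numbered samples correlated at 0.165, 0.076 and 0.072, each the highest for its sample, a hint from the data only, and the numbers were not taken to pair the samples. Depth limits CRYAB, GABRP, KRT16 and the untested members most.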
